A study of Rattus norvegicus with 10 samples.

Results

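The Hippo pathway is a kinase cascade that controls 2 related transcriptional coactivators, YAP (gene Yap1) and TAZ (gene Wwtr1). When the kinases LATS1 and LATS2 are active they phosphorylate YAP and TAZ, which then stay in the cytoplasm or are degraded. When they are not, YAP and TAZ enter the nucleus and bind TEAD transcription factors, which hold the DNA contact. In the peripheral nervous system YAP and TAZ are known to be needed by Schwann cells to form myelin. The 8 genes described here are Yap1, Wwtr1, Tead1, Tead2, Lats1, Lats2, Amotl2 and Vgll4, out of 23487 genes in the count table. They were chosen by their values in OLs, where Yap1 was higher with the miR-145 mimic than with its control, so in that comparison their values are a description and carry no test. Each of the 8 had 1 gene ID, and all 8 passed the filter on low counts in each of the 5 comparisons.

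RNA was sequenced from primary cultures of Sprague-Dawley rat cells in 10 libraries, 2 for each of 5 groups. Oligodendrocyte progenitor cells (OPCs) were shaken off mixed glial cultures of newborn rat cortex, with other cells left to adhere to plates as a cleaning step, and some were differentiated into oligodendrocytes (OLs). The question was what raising miR-145-5p, a microRNA, does in OLs and what blocking it does in OPCs. OLs were collected 5 days after transfection with 30 nM of a scrambled control (OL miR-ctl), a miR-145 mimic (OL miR-145) or miR-145 and miR-219 mimics together (OL miR-145+miR-219). OPCs were collected 24 h after transfection with 30 nM of an inhibitor of miR-145 (OPC anti-miR-145) or its control (OPC anti-miR-ctl). One treatment tag of the OL miR-145 samples names miR-219 as well, but the titles give only miR-145, and the titles were followed. For the OL groups the labels and the paper's results name mimics where its sequencing methods name a lentivirus, and the labels were followed. Library totals ran from 33505668 to 42684176 counts. Levels are CPM, a gene's count relative to its library's total, after TMM normalization over the 10 libraries, and they compare a gene between libraries, not genes with each other, since no transcript lengths were used. The paper's reporting summary counts cultures from separate animals, which it calls mice, as biological replicates, while the labels only number the libraries, and p-values measure the spread between these 2 samples of a group.

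The OL and OPC labels were checked against markers. The marker in brackets after a list has the highest mean CPM over the 10 libraries, and in some libraries another is higher. Summed over 12 markers of maturing OLs (Mbp), levels were 18307 and 33182 CPM in OL miR-ctl and 1342 and 1424 CPM in OPC anti-miR-ctl, where Cnp made up 688 and 713 CPM and Mbp 248 and 279 CPM. Summed over the 9 OPC markers found (Ptprz1), levels were 3839 and 3114 CPM in OL miR-ctl and 6764 and 6588 CPM in OPC anti-miR-ctl. No marker of either list was at 0 in any library. The OL libraries also held astrocyte transcripts, with Gfap at 4794 and 4173 CPM in OL miR-ctl against 8.12 and 7.80 CPM in OPC anti-miR-ctl.

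Control OLs held more mRNA of both coactivators, of the kinase gene Lats2 and of the scaffold gene Amotl2 than control OPCs. Of the 8 genes, 4 were called higher in OL miR-ctl than in OPC anti-miR-ctl (Yap1, Wwtr1, Lats2 and Amotl2) and 0 were called lower, at an edgeR adjusted p under 0.05. Over the 15721 genes tested, 57.5% were called in this comparison, 28.8% higher and 28.7% lower, so a call was about as common in general as among the 8, and a call in the higher direction less common. Without OPC anti-miR-ctl replicate 1 or 2 the genes called fell from 9042 to 5071 or 5016. The median log2 fold change was 0.60 over the 8 genes and 0.01 over the genes tested. Cell stage, the kind of oligonucleotide and the time after transfection all differ between these 2 groups and cannot be told apart.

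With miR-145 blocked in OPCs, 1 of the 8 genes was called, Vgll4, and it was higher. Over the 15496 genes tested, 28.1% were called, 12.1% higher and 16% lower. These 4348 calls became 2424 without OPC anti-miR-ctl replicate 1, 2530 without its replicate 2, 7130 without OPC anti-miR-145 replicate 2 and 2657 with all 5 groups in 1 fit. The median log2 fold change of the 8 was -0.07, against 0.00 for the genes tested. At an unadjusted p under 0.05 edgeR gave 2 of the 8, Vgll4 and Tead2, and 6331 of the genes tested, and DESeq2 also called 1 of the 8, and 4103 genes in all.

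In OLs, Yap1 and Wwtr1 were higher and Lats1 and Amotl2 lower with the miR-145 mimic, with no overlap between the libraries of the groups for 4 of the 8 genes. Over all 15461 genes 47.3% had no overlap, and these 4 belong to the comparison that chose them. In OLs given both mimics edgeR called 0 of the 8 genes against OL miR-ctl (0% of 15436 genes tested) and 0 against OL miR-145 (0% of 15501). At an unadjusted p under 0.05 these comparisons gave 1 and 0 of the 8 genes and 956 and 228 of the genes tested, and DESeq2 called 0 of the 8 in both and 106 and 9 genes in all. The 1 gene is Yap1, whose OL miR-ctl values also chose it, so nothing is read from it. Between both mimics and miR-145 alone the log2 fold changes of the 8 lay between -0.47 (Wwtr1) and 0.19 (Amotl2). Both comparisons use libraries that also served to choose the 8 genes, so their values and calls for the 8 are descriptions. The comparisons among OL groups share libraries, and OL miR-ctl and OPC anti-miR-ctl each serve in more than 1 comparison, so their values are given side by side.

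**Figure D1:**
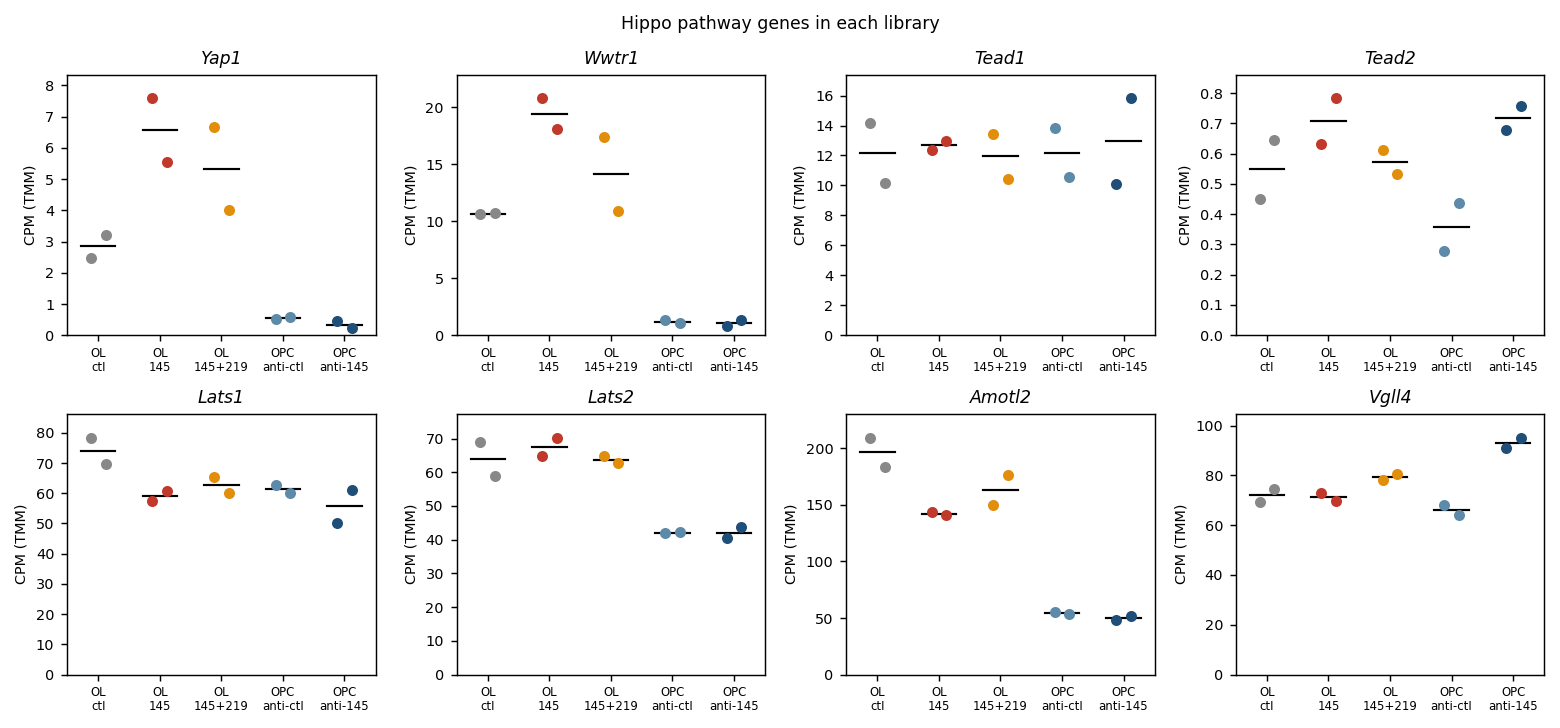
Levels of the 8 Hippo pathway genes in CPM after TMM normalization, each panel on its own linear axis from 0. Points are single libraries, 2 per group, and the horizontal line is their mean. The 6 OL libraries lie above the 4 OPC libraries for Yap1, Wwtr1, Lats2 and Amotl2, and Vgll4 is highest in OPC anti-miR-145.

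Yap1 encodes the coactivator YAP. It was at 2.49 and 3.22 CPM in OL miR-ctl, 7.59 and 5.53 CPM in OL miR-145, and 6.65 and 4.02 CPM in OL miR-145+miR-219. In OPCs it was at 0.531 and 0.575 CPM with anti-miR-ctl and at 0.452 and 0.230 CPM with anti-miR-145, or 23, 21, 18 and 10 counts. Ordered by level, the groups ran from OPC anti-miR-145 through OPC anti-miR-ctl and OL miR-ctl to OL miR-145+miR-219 and OL miR-145, and in that order only the last 2 neighbours overlapped. OL miR-ctl exceeded OPC anti-miR-ctl 5.09-fold (95% interval 3.09 to 8.39, edgeR adjusted p = 0.00173). In OPCs the log2 fold change with the inhibitor was -0.71, with an interval from -1.75 to 0.32 and an edgeR adjusted p of 0.265, so at 10 to 23 counts no difference was detected. In OLs, where the gene was selected on its rise, the log2 fold change was 1.21 for OL miR-145 over OL miR-ctl. OL miR-145+miR-219 lay 0.91 above the same controls on the log2 scale. Those control values also chose Yap1, so this value is a description and carries no test.

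Wwtr1 encodes TAZ, the paralogue of YAP. It was at 10.6 and 10.7 CPM in OL miR-ctl, 20.8 and 18.1 CPM in OL miR-145, and 17.4 and 10.9 CPM in OL miR-145+miR-219. Its OPC levels were 1.32 and 1.09 CPM with anti-miR-ctl and 0.829 and 1.36 CPM with anti-miR-145. Like Yap1 it was low in each OPC library and highest in OL miR-145, but here the 2 OPC groups overlapped while the OL groups did not. The difference between OL miR-ctl and OPC anti-miR-ctl was 8.71-fold (95% interval 6.36 to 11.9, edgeR adjusted p = 0.000159). The log2 fold change of Wwtr1 in OPCs given the inhibitor was -0.16 (edgeR adjusted p = 0.749). In OLs it was 0.87 for OL miR-145 and 0.42 for both mimics, each over OL miR-ctl. Those control libraries also served to choose the genes, so these 2 values are descriptions and carry no test.

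Astrocyte markers had higher fitted levels in OLs where both coactivators did, except Gjb6 with both mimics against OL miR-ctl (log2 fold change -0.62). The main edgeR fits called none of these markers among OL groups. In OL miR-145 against OL miR-ctl, 11 of 11 astrocyte markers had a higher fitted level, with a median log2 fold change of 0.88 against -0.01 for all genes. There edgeR called 0 of the 11 (8 at an unadjusted p under 0.05) and DESeq2 6, where over all 15461 genes edgeR called 0% (2067 unadjusted) and DESeq2 649 genes. For both mimics edgeR called 0 against OL miR-ctl (4 unadjusted, DESeq2 1) and 0 against OL miR-145 (0 unadjusted, DESeq2 0). Their summed level was 6980 and 5950 CPM in OL miR-ctl, 14593 and 9956 CPM in OL miR-145, and 12101 and 7222 CPM in OL miR-145+miR-219. In OPCs the sum was 809 and 786 CPM with anti-miR-ctl and 558 and 611 CPM with anti-miR-145. Gfap, a glial filament protein and the highest of these markers in each OL library, was at 9675 and 6713 CPM in OL miR-145 and at 7707 and 4865 CPM in OL miR-145+miR-219. Among the 6 OL libraries the 4 highest stood in the same order for Yap1 and Gfap, with OL miR-145 replicate 1 first, OL miR-145+miR-219 replicate 1 second, OL miR-145 replicate 2 next and OL miR-145+miR-219 replicate 2 after it. Gja1, an astrocyte gap junction protein, followed the same order, at 642, 572, 381 and 258 CPM, above 159 and 161 CPM in OL miR-ctl. Of the 11 markers only Gfap, Gja1 and S100b held this order. OL miR-145 replicate 2 stood second for Wwtr1 and for Sox9, and OL miR-145+miR-219 replicate 1 first for Aqp4, an astrocyte water channel, at 450 CPM. For Slc1a3, Slc1a2, Aldoc and Fgfr3 OL miR-ctl replicate 1 stood above OL miR-145+miR-219 replicate 2, and Aldh1l1 and Gjb6 differed too. How many of all genes hold the order was not counted, so nothing is read from it. The libraries of OL miR-145 lay apart from those of OL miR-ctl for 9 of the 11 markers, where 47.3% of all genes did. Those of OL miR-145+miR-219 lay apart for 6, but no share over all genes was counted there, so nothing is read from the 6. Only Gjb6 was at 0 counts, in replicate 1 of each OPC group. In control OLs against control OPCs 10 of 11 astrocyte markers were called higher by edgeR and 0 lower, against 28.8% and 28.7% of all genes. These are bulk libraries, in which fewer cells of a type and less RNA per cell cannot be told apart, and the part of astrocyte transcripts in the Yap1 and Wwtr1 values was not tested.

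**Figure D2:**
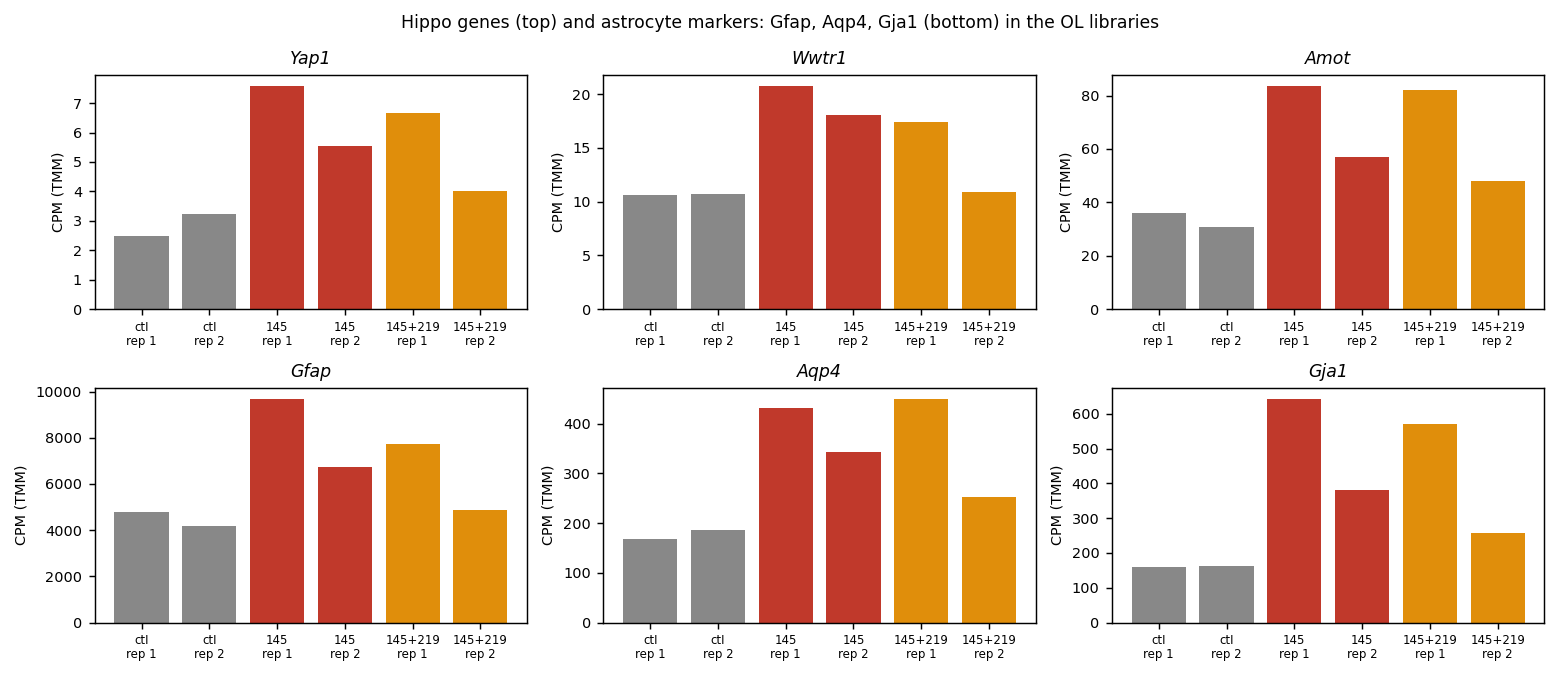
Levels in the 6 OL libraries in CPM after TMM normalization, as bars from 0, 1 per library. The top row holds Yap1, Wwtr1 and Amot and the bottom row the astrocyte markers Gfap, Aqp4 and Gja1. In each of the 6 panels both OL miR-ctl bars are the lowest, which does not hold for 5 of the 11 astrocyte markers (Slc1a3, Slc1a2, Aldoc, Fgfr3 and Gjb6).

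Other cell types were followed in the same libraries. Of 9 fibroblast and mural markers found (Cspg4), those other than Cspg4, which is also an OPC gene, summed to 53.3 and 38.5 CPM in OL miR-ctl, 83.4 and 182 CPM in OL miR-145, and 100 and 86.0 CPM in OL miR-145+miR-219. In the same terms it stayed between 18.1 and 20.0 CPM in the 4 OPC libraries. With Cspg4 the sums were 146, 94.6, 133, 226, 150 and 130 CPM in the OL libraries in that order of groups, and 587, 579, 371 and 441 CPM in OPC anti-miR-ctl and OPC anti-miR-145. Dcn was at 0 in OL miR-ctl replicate 1 and OL miR-145+miR-219 replicate 1, and Acta2 in OPC anti-miR-ctl replicate 1. Of 12 microglia markers (Csf1r), the sums were 415 and 615 CPM in OL miR-ctl, 416 and 1061 CPM in OL miR-145 and 384 and 688 CPM in OL miR-145+miR-219. In OPCs they were 1014 and 962 CPM with anti-miR-ctl and 1143 and 926 CPM with anti-miR-145, and no microglia marker was at 0. These sums hide shifts in both directions, since with the inhibitor edgeR called 7 of the 12 microglia markers higher and 4 lower, and 2 and 3 with all 5 groups in 1 fit. In OL miR-145 against OL miR-ctl 12 of 12 microglia markers and 7 of 8 fibroblast and mural markers tested had a higher fitted level, with median log2 fold changes of 0.71 and 1.61. The median of all genes was -0.01, and edgeR called 0% of them. Among microglia markers only Cx3cr1, P2ry12 and Trem2 had no overlap, while all 8 fibroblast and mural markers tested had none, against 47.3% of all genes. OL miR-145 replicate 2 exceeded replicate 1 for Col3a1, at 29.9 against 3.05 CPM, and for C1qb, at 213 against 72.3 CPM. Endothelial markers (Kdr), with Tie1 at 0 in OL miR-145 replicate 1, summed to at most 27.7 CPM and ependymal markers (Rsph1) to at most 14.5 CPM in any library, and neuron markers (Map2) to between 378 and 767 CPM. With the inhibitor in OPCs edgeR called 4 of 8 neuron markers higher and 0 lower, though not Map2. Over all genes it called 12.1% higher and 16% lower in that comparison. The part of these cells in the values of the 8 genes was not tested.

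Tead1 and Tead2 encode TEAD factors, through which YAP and TAZ reach DNA. Tead1 was at 14.2 and 10.2 CPM in OL miR-ctl, 12.4 and 13.0 CPM in OL miR-145, and 13.5 and 10.4 CPM in OL miR-145+miR-219. It was at 13.8 and 10.5 CPM in OPC anti-miR-ctl and at 10.1 and 15.8 CPM in OPC anti-miR-145. Every pair of neighbouring groups overlapped, and replicates of 1 group lay as far apart as the groups did, with both the lowest and the highest library in OPC anti-miR-145. Between OL miR-ctl and OPC anti-miR-ctl the log2 fold change of Tead1 was -0.01 (95% interval -0.57 to 0.54, edgeR adjusted p = 0.966), and with the inhibitor in OPCs it was 0.07 (-0.45 to 0.59, adjusted p = 0.826). These signs turned when 1 library was left out, so no direction is given for Tead1.

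Tead2 was counted 12 to 33 times in a library. It was at 0.452 and 0.644 CPM in OL miR-ctl, 0.632 and 0.783 CPM in OL miR-145, and 0.614 and 0.534 CPM in OL miR-145+miR-219. In OPCs it was at 0.277 and 0.438 CPM with anti-miR-ctl and at 0.679 and 0.759 CPM with anti-miR-145. Both inhibitor libraries thus lay above both of their controls, as well as above OL miR-ctl, while OL miR-145 and OPC anti-miR-145 overlapped. The difference in OPCs was 2.00-fold with a wide interval (1.08 to 3.73) and did not pass the test (edgeR adjusted p = 0.0915).

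LATS1 and LATS2 are the kinases that act directly on YAP and TAZ. Lats1 was at 78.5 and 69.8 CPM in OL miR-ctl, 57.6 and 60.6 CPM in OL miR-145, and 65.3 and 60.2 CPM in OL miR-145+miR-219. OPCs held 62.7 and 60.2 CPM with anti-miR-ctl and 50.2 and 61.0 CPM with anti-miR-145. Both OL miR-ctl libraries were above the other 8, which overlapped between neighbouring groups. Lats1 was 1.19-fold higher in OL miR-ctl than in OPC anti-miR-ctl (95% interval 1.02 to 1.40) but was not called (edgeR adjusted p = 0.0566), except without OL miR-ctl replicate 2, at a log2 fold change of 0.34 (adjusted p = 0.00147). Its log2 fold change in OL miR-145 against OL miR-ctl was -0.32. With anti-miR-145 in OPCs the fold change was -0.16 on the log2 scale (edgeR adjusted p = 0.297), and without OPC anti-miR-145 replicate 2 it was -0.29 and called (adjusted p = 0.01).

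Lats2 separated OLs from OPCs. It was at 69.0 and 59.0 CPM in OL miR-ctl, 64.9 and 70.3 CPM in OL miR-145, and 64.8 and 62.7 CPM in OL miR-145+miR-219. In OPCs it was at 41.8 and 42.4 CPM with anti-miR-ctl and at 40.5 and 43.6 CPM with anti-miR-145. Neighbouring OL groups overlapped, as did the 2 OPC groups, while OL miR-145 lay above OL miR-145+miR-219 and the 2 cell stages did not overlap. Lats2 was 1.51-fold higher in OL miR-ctl than in OPC anti-miR-ctl (95% interval 1.26 to 1.80, edgeR adjusted p = 0.00586). This call was lost when either OPC anti-miR-ctl library was left out, at log2 fold changes of 0.58 and 0.59 and adjusted p of 0.0636 and 0.0603.

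Amotl2 encodes a membrane scaffold of the angiomotin family that binds YAP and keeps it out of the nucleus. It was at 210 and 183 CPM in OL miR-ctl, 143 and 141 CPM in OL miR-145, and 150 and 177 CPM in OL miR-145+miR-219. OPC levels were 54.9 and 53.2 CPM with anti-miR-ctl and 48.1 and 52.1 CPM with anti-miR-145. No neighbours in the order of group levels overlapped, from OPC anti-miR-145 at the bottom through OPC anti-miR-ctl, OL miR-145 and OL miR-145+miR-219 to OL miR-ctl at the top. Amotl2 was 3.60-fold higher in OL miR-ctl than in OPC anti-miR-ctl (95% interval 3.05 to 4.26, edgeR adjusted p = 0.00012). Within OLs its log2 fold change was -0.46 with the miR-145 mimic and -0.26 with both mimics, opposite in sign to Yap1 in the same libraries. The control libraries there also served to choose the genes, so these values are descriptions and carry no test. In OPCs given the inhibitor the log2 fold change of Amotl2 was -0.12 (edgeR adjusted p = 0.31).

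Markers of maturing OLs differed in direction between OL groups. Enpp6, a marker of newly formed OLs that was picked after its values were seen, was highest in the OL miR-ctl libraries. It was at 179 and 260 CPM there, 97.5 and 151 CPM in OL miR-145, and 116 and 172 CPM in OL miR-145+miR-219. Of 12 maturing OL markers, 8 had a lower fitted level in OL miR-145 than in OL miR-ctl, with a median log2 fold change of -0.24, and Mog, Mobp, Opalin and Ermn a higher one. In OL miR-145+miR-219 against OL miR-ctl 7 of the 12 were higher, with a median of 0.18. Against OL miR-145 all 12 were higher, with a median of 0.37. In each of these comparisons edgeR called 0 of the 12, as it called 0% of all genes. Libraries lay apart for 4 of the 12 in OL miR-145 against OL miR-ctl, where 47.3% of all genes did. With both mimics they did so for 3 against OL miR-ctl and 0 against OL miR-145. No share over all genes was counted with both mimics, so nothing is read from the 3 and the 0. Of 9 OPC markers 6 had a lower fitted level in OL miR-145 than in OL miR-ctl, with a median of -0.39 over the 9. Libraries lay apart for these 6, again against 47.3% of all genes, and edgeR called 0 of the 9. The 12 maturing OL markers summed to 16566 and 26504 CPM in OL miR-145, against 18307 and 33182 CPM in OL miR-ctl. With both mimics they summed to 20595 and 36347 CPM. Replicates of a group thus lay further apart than the groups did. Among libraries of the same replicate number, though, OL miR-145 was lowest and OL miR-145+miR-219 highest. The part of OL maturation or lineage in the Lats1 and Amotl2 values was not tested.

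VGLL4 competes with YAP for TEAD and acts as a corepressor. Vgll4 was at 69.2 and 74.7 CPM in OL miR-ctl, 73.0 and 69.7 CPM in OL miR-145, and 78.1 and 80.4 CPM in OL miR-145+miR-219. In OPCs it was at 68.0 and 64.2 CPM with anti-miR-ctl and at 91.1 and 95.2 CPM with anti-miR-145. The inhibitor libraries were the highest of the 10 and the OPC controls the lowest. With the inhibitor Vgll4 was 1.40-fold higher (95% interval 1.22 to 1.59, edgeR adjusted p = 0.00538), in both libraries. Without OPC anti-miR-ctl replicate 2 the log2 fold change was 0.42 and no longer passed (adjusted p = 0.105). Control OLs and control OPCs differed by 0.11 on the log2 scale (95% interval -0.10 to 0.32, edgeR adjusted p = 0.315).

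The OPC libraries also differed in interferon response genes. Summed over 10 such genes, of which Mx2 was the highest in each library and none was at 0, levels were 1831 and 1738 CPM in OPC anti-miR-ctl, 220 and 257 CPM in OPC anti-miR-145, and 58.4 and 59.3 CPM in OL miR-ctl. By edgeR 10 of the 10 were called lower with the inhibitor, against 16% of all genes. In OL miR-ctl against OPC anti-miR-ctl 10 of the 10 were called lower, against 28.7% of all genes. OPC anti-miR-ctl serves in both comparisons, and the part of this response in the Vgll4 value and in the differences between OLs and OPCs was not tested. Of 11 astrocyte markers, 2 were called higher with the inhibitor and 5 lower (2 and 2 with all 5 groups in 1 fit), and Gfap was at 41.2 and 51.8 CPM there. Among lineage markers, 4 of 9 OPC markers were called higher and 2 lower by edgeR (2 and 0 with all 5 groups in 1 fit). Of 12 maturing OL markers 2 were called higher and 2 lower (0 and 1). Over all genes 12.1% were called higher and 16% lower, so the calls of maturing OL markers were near the general share. Their part in the Vgll4 value was not tested.

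The other TEAD and VGLL genes were read from a list of 5, of which Tead3, Tead4 and Vgll3 were found. Tead3 lay between 13.4 and 18.1 CPM in the 10 libraries and was called in no comparison by edgeR. Its log2 fold change was 0.20 for OL miR-ctl over OPC anti-miR-ctl (adjusted p = 0.157) and 0.25 for the inhibitor in OPCs (adjusted p = 0.231). Tead4 was at 1.48 and 1.53 CPM in OL miR-ctl against 0.346 and 0.0821 CPM in OPC anti-miR-ctl, a 6.68-fold difference (95% interval 2.39 to 18.7, edgeR adjusted p = 0.012). Its log2 fold change of 2.74 became 4.13 without OPC anti-miR-ctl replicate 1 and 2.09 without replicate 2, both called. Vgll3, another TEAD partner, was at 5.45 and 2.82 CPM against 0.646 and 0.493 CPM, 7.15-fold higher in OL miR-ctl (edgeR adjusted p = 0.00341). Neither was called with the inhibitor, at edgeR log2 fold changes of 0.48 (adjusted p = 0.605) and -0.26 (adjusted p = 0.608). With 1 library left out the Tead4 value there ran from -0.19 to 1.86, so no direction is given for it.

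Upstream regulators of LATS and of YAP were read from a list of 28 genes, of which 26 were found. In OL miR-ctl against OPC anti-miR-ctl edgeR called 9 higher and 8 lower of 26 tested, with a median log2 fold change of 0.03, a share of calls near the 57.5% of all genes. Wwc2, a scaffold that activates LATS, showed the smallest p of those called higher, at 209 and 224 CPM in OL miR-ctl against 32.0 and 29.1 CPM in OPC anti-miR-ctl, 7.03-fold (edgeR adjusted p = 4.88e-05). Among those called lower were the casein kinase gene Csnk1e, at a log2 fold change of -0.59, and the atypical cadherin gene Fat4, at -0.80. Leaving out 1 OPC anti-miR-ctl library lowered the 17 calls to 10 or 11, and Fat4 lost its call without replicate 1 (adjusted p = 0.0628).

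With the inhibitor in OPCs 5 upstream genes were called higher and 5 lower of 25 tested, where 28.1% of all genes were called, and the median log2 fold change was 0.00. Btrc, a ubiquitin ligase subunit that takes part in the breakdown of YAP, was at 146 and 149 CPM against 76.6 and 78.3 CPM in OPC anti-miR-ctl, 1.88-fold higher (edgeR adjusted p = 0.000274). Dchs1, a cadherin that binds FAT4, was 1.69-fold higher (edgeR adjusted p = 0.00408). Wwc2 fell by 0.50 on the log2 scale (edgeR adjusted p = 0.0103). The 10 calls became 5 when all 5 groups were fitted together, where Wwc2 was not called (adjusted p = 0.0875), and 2 or 3 without 1 OPC anti-miR-ctl library. Wwc2 was also not called without OPC anti-miR-ctl replicate 1 (adjusted p = 0.102).

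Known targets of YAP and TAZ were read from a list of 22 genes, of which 20 were found, with Amotl2 and Lats2 among them, and Ptpn14, which the upstream list holds too. In OL miR-ctl against OPC anti-miR-ctl edgeR called 11 higher and 3 lower of 19 tested, with a median log2 fold change of 0.98, where 28.8% of all genes were called higher and 28.7% lower. Ccn1, a secreted matrix protein and one of the best known targets, was at 2.89 and 2.33 CPM against 0.369 and 0.520 CPM, 5.83-fold (edgeR adjusted p = 0.00188). Ccn2, its relative, was at 1.00 and 0.491 CPM against 0.115 and 0.0821 CPM, 7.29-fold (edgeR adjusted p = 0.01), a call lost without either OPC anti-miR-ctl library (adjusted p = 0.064 and 0.0773), and its log2 fold change of 2.87 became 2.25 without OL miR-ctl replicate 1. The receptor gene Axl was 4.81-fold higher (edgeR adjusted p = 6.08e-05), Tgfb2 5.26-fold (adjusted p = 0.000132) and Ccdc80 14.5-fold (adjusted p = 0.000142). Crim1 was lower, at 21.3 and 20.3 CPM against 76.1 and 70.6 CPM, a log2 fold change of -1.83 (edgeR adjusted p = 0.000101). Ankrd1, a muscle-rich target, was at 0.0753 and 0.215 CPM in OL miR-ctl and at 0 in both OPC anti-miR-ctl libraries, and was too low to test.

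With the inhibitor in OPCs 4 of 19 targets were called higher and 3 lower, against 12.1% and 16% of all genes. Axl was at 54.6 and 55.5 CPM against 14.5 and 14.2 CPM, 3.79-fold higher (edgeR adjusted p = 4.61e-05), and Igfbp3 3.53-fold higher (adjusted p = 0.000177). Myof, a membrane repair gene, was at 13.2 and 15.6 CPM against 27.7 and 29.6 CPM, a log2 fold change of -1.01 (edgeR adjusted p = 0.000796). Dock5 fell by 1.21 (adjusted p = 0.01) and Nuak2 by 0.91 (adjusted p = 0.0246) on the log2 scale, and both lost the call when all 5 groups were fitted together (adjusted p = 0.0785 and 0.15). Without OPC anti-miR-ctl replicate 2 Nuak2 was not called either (adjusted p = 0.155). Ccn1 was at 0.578 and 1.01 CPM with the inhibitor (log2 fold change 0.83, edgeR adjusted p = 0.172), and Ccn2 at 0.101 and 0.161 CPM (0.37, adjusted p = 0.688). The 7 calls became 3 with all 5 groups in 1 fit and 4 without OPC anti-miR-ctl replicate 2.

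**Figure D3:**
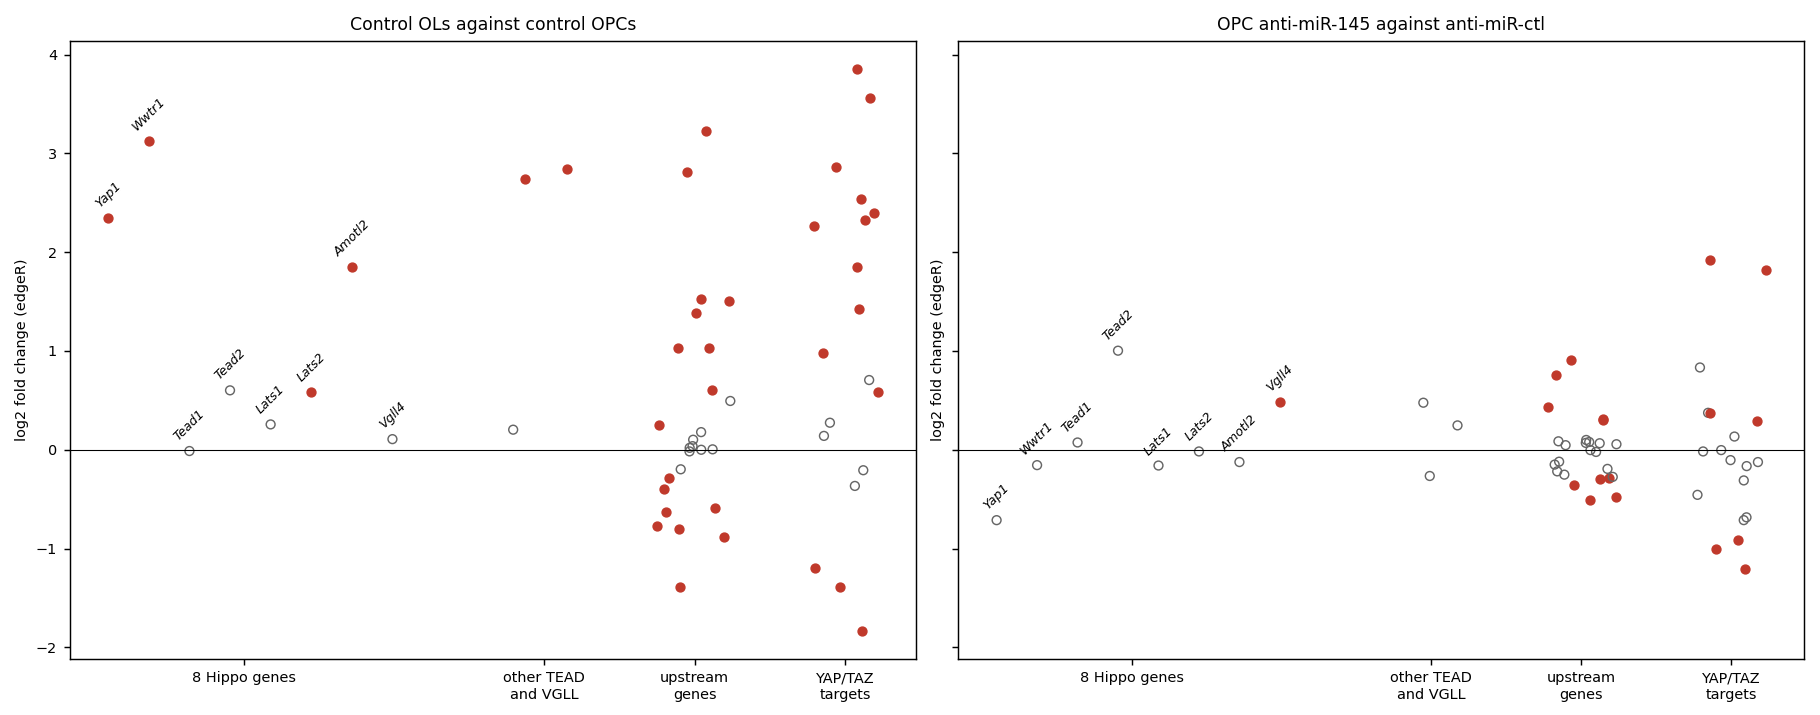
Log2 fold changes from edgeR for the 8 genes (named), the other TEAD and VGLL genes, upstream regulators and YAP and TAZ targets, in control OLs against control OPCs (left) and OPC anti-miR-145 against OPC anti-miR-ctl (right). Each point is a gene, filled where called at an adjusted p under 0.05, and horizontal position within a column has no meaning. Amotl2, Lats2 and Ptpn14 stand in more than 1 column. On the left 11 of 19 targets are called higher, and on the right 4.

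Within OLs, the target list split in direction. Ccn1 was at 2.24 and 2.83 CPM in OL miR-145 and Ccn2 at 1.24 and 1.72 CPM, and the list held 11 genes with a higher and 9 with a lower fitted level than in OL miR-ctl, with a median log2 fold change of 0.02. Axl was at 118 and 139 CPM in OL miR-145 against 68.3 and 71.2 CPM in OL miR-ctl, and Ccdc80 at 21.2 and 17.7 CPM against 10.7 and 11.9 CPM. Amot, which encodes angiomotin, was at 83.7 and 56.9 CPM against 35.9 and 30.6 CPM, the opposite direction to its relative Amotl2. Axl, Ccdc80 and Amot were picked for mention after their values were seen, and this comparison carries no test here.

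The genes whose levels were most like those of Yap1 were found by Pearson r of log2(CPM + 1) over the 10 libraries, among 12521 genes with a symbol and a mean of at least 1 CPM. They were S100a13 (r = 0.998), Nbl1 (0.996), S100a1 (0.996), Decr1 (0.994) and Galnt18 (0.994). S100a13 was at 5.92 and 6.62 CPM in OL miR-ctl, 17.2 and 12.5 CPM in OL miR-145 and between 0.966 and 1.40 CPM in OPCs, so the likeness rests on the gap between OLs and OPCs and on the step within OLs. Wwtr1 ranked 220 in the same list (r = 0.977). The genes most like Tead1 were Notch1 (0.935), Bmpr2 (0.916), Klhl11 (0.883), Ppp1r12b (0.881) and Ccdc6 (0.864), which like Tead1 varied between replicates of a group more than between groups. Libraries of a group share a treatment and cell stage, so these values describe the pattern and carry no p.

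The microRNA raised or blocked in these cells is printed because 3 of the 5 comparisons set its mimic or inhibitor against a control. Rat miR-145-5p lies at chr18:57370033-57370055 on the minus strand of GRCr8 (RefSeq), and its seed, bases 2 to 8, which pairs with target RNAs, is in capitals.
rno-miR-145-5p: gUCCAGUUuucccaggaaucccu

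TEAD factors bind a short motif, GGAATG, or CATTCC on the other strand. Promoters of 300 bases, 250 before to 50 after the gene start, were searched on both strands in the RefSeq table for GRCr8, where 5 of the 8 genes had an entry (Yap1, Wwtr1, Lats1, Amotl2 and Vgll4). Of all 33469 promoters 14.2% held the motif. It was in 3 of 7 promoters of the 8 genes (those of Yap1, Amotl2 and Vgll4), and in 5 of 15 promoters of the target list, Amotl2 included, among them Ccn1 and Ccn2. The stretches around the motif are shown for Yap1 and Amotl2, which were both higher in control OLs than in control OPCs, and for the target Ccn2, with each match in capitals. The motif did not go with that difference throughout: Wwtr1 was 8.71-fold higher there without a match, and Vgll4, with a match, was not called. Lats1 had no match and was not called in the main fit. The stretch of Yap1 is at chr8:13451518-13451583 (minus strand), with the match starting 116 bases before the gene start. That of Amotl2 is at chr8:112182520-112182585 (plus strand), with the match starting 76 bases before it, and that of Ccn2 at chr1:22624681-22624800 (minus strand), with 3 matches, the first starting 166 and the last 92 bases before the gene start.
Yap1: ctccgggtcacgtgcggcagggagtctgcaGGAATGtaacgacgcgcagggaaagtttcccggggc
Amotl2: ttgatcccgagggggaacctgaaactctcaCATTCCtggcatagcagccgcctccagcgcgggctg
Ccn2: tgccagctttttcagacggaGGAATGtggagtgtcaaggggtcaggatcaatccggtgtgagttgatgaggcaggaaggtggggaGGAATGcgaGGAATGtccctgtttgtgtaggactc
A match is a description of these letters, and binding of a TEAD factor was not measured here.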

How the data were processed

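Reads were assigned to transcripts by the authors with Salmon 0.12.0 (named in the submitters' processing notes), who deposited estimated counts for 23487 genes without normalization. A second deposited table holds fold changes and p-values of OL miR-145 against OL miR-ctl, and only its gene symbols (14561 genes) were used. Counts were rounded to whole numbers. For each comparison, edgeR 4.0.16 in R 4.3.3 (quasi-likelihood test, TMM) was fitted to the 4 libraries concerned. A gene was tested where 2 or more libraries held 5 or more counts, and called where its p, adjusted by Benjamini-Hochberg over the genes tested, was below 0.05. Intervals are 95% and use the test's own degrees of freedom. The functions were tested on simulated data. Alternatives were DESeq2 1.42.0, its size factors, 2 other filters, all 5 groups in 1 fit, a replicate block, CPM from library totals and leaving out each library. Replicates differed by more than counting error in each group. The 8 genes and the lists were chosen with earlier results of these data known. Named from the pathway lists, in each comparison with calls, were the 4 genes of smallest p in each direction among those called, plus Tead3, Tead4, Vgll3, Ccn1, Ccn2 and Ankrd1. One gene that this rule picks is not reported here. Sequences came from RefSeq tables and figures from Python 3.11.15 with matplotlib 3.10.9.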

Additional observations from a re-analysis of the deposited data

How the results depend on the processing

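With 2 libraries per group, leaving out 1 leaves a lone sample that is assumed to vary like the others, and Yap1 rests on 10 to 23 counts in each OPC library. Of the 8 genes, the number called for OPC anti-miR-145 against OPC anti-miR-ctl ran from 0 to 2 with 1 library left out. For OL miR-ctl against OPC anti-miR-ctl it ran from 3 to 5, and for the OL comparisons with both mimics it was 0. With the replicate block 1 of the 8 was called in OPCs, 4 between OLs and OPCs and 0 in both comparisons with both mimics. Over all genes the block moved the calls for both mimics from 0 to 132 against OL miR-ctl and from 0 to 184 against OL miR-145, and those for OL miR-145 against OL miR-ctl from 0 to 2272, where DESeq2 called 649 and all 5 groups in 1 fit 79. The labels do not say that the numbers pair the samples. Deviations of same-numbered libraries correlated at -0.141 in OPCs and, among OLs, at 0.622 between OL miR-145+miR-219 and OL miR-145, 0.457 between OL miR-145+miR-219 and OL miR-ctl and 0.396 between OL miR-145 and OL miR-ctl. DESeq2, its size factors, both other filters and all 5 groups in 1 fit also gave 1, 4, 0 and 0. The block moved the upstream genes called in OPCs from 10 to 6. The Yap1 log2 fold change for OL miR-145 over OL miR-ctl ran from 0.97 to 1.42 with 1 library left out. With CPM from library totals 9 of 40 group means of the 8 genes moved by more than 1 SD.

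Some signs turned, and the cause was not tested. The main value was 0.48 for Tead4 in OPCs and -0.30 for Yap1 with both mimics against OL miR-145, and the others were nearer 0. For OL miR-145+miR-219 against OL miR-ctl the log2 fold change of Lats2 was 0.0047 with DESeq2 and with its size factors, 0.0063 without a filter, 0.0011 with at least 10 counts and 0.0041 with the replicate block. With 1 library left out it ran from -0.11 to 0.12 for Lats2, from -0.24 to 0.24 for Tead1 and from -0.15 to 0.35 for Tead2. Against OL miR-145 it ran from -0.72 to 0.016 for Yap1 and from -0.29 to 0.079 for Tead1. In OPCs it ran from -0.54 to 0.14 for Wwtr1, from -0.27 to 0.35 for Tead1, from -0.057 to 0.022 for Lats2 and from -0.19 to 1.86 for Tead4. For OL miR-145 against OL miR-ctl it ran from -0.16 to 0.325 for Tead1, from -0.031 to 0.21 for Lats2 and from -0.057 to 0.043 for Vgll4. Between OLs and OPCs Tead1 was 0.0020 with all 5 groups in 1 fit and ran from -0.27 to 0.20 with 1 library left out.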
